A study of Mus musculus with 24 samples.

Results

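Gene deserts are stretches of the genome without protein-coding genes. Peaks of H3K27ac from 4 lists made from mouse limb buds were merged wherever they overlapped, which gave 49367 union regions. Of these, 5535 (11.2%) lay 100 kb or more from the nearest protein-coding gene body and are called desert regions here. Among the union regions the rule used position alone. Which union regions exist rests on the peaks called in the 4 lists, and 978 desert regions are members through the E12.5 control alone. A desert is the gap between neighbouring protein-coding gene bodies and is named by its 2 flanking genes. Only gaps longer than 200 kb can hold a member, and 1689 of the 19706 gaps were that long. Desert regions were found in 818 of them.

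H3K27ac, acetylation of lysine 27 on histone H3, marks active promoters and active enhancers. Deserts hold few promoters, so the mark there is read mostly as that of distal enhancers, DNA elements that raise transcription of a gene at a distance through looping of the chromatin. Developmental regulators of the limb, Sox9 among them, often lie beside such deserts. Sox9 is a transcription factor needed for mesenchymal cells of the limb bud to condense and become cartilage.

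Each of 4 groups had 1 library. They were control limb buds at embryonic stage E11.5, limb buds titled Sox9null at E11.5, control limb buds at E12.5, and limb buds titled Sox9cKO at E12.5. The sample titles give these labels. No source used here gives the alleles, the driver of the conditional knockout, the strain or the number of embryos pooled. The deposited files of the 2 Sox9-deficient samples carry each other's label in their names, so they are called the Sox9null-labelled and the Sox9cKO-labelled list, after the sample titles. With 1 library per group no test between conditions was possible, and 95% Wilson intervals cover counting error over regions only. Whole limb buds were used, so fewer cells that carry a mark and less of the mark per cell cannot be told apart.

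The lists held 28419 to 36937 peaks, of which 8.31% to 11.4% overlapped desert regions. The depth in reads is unknown. The authors' score per peak ran from 50.01 to 3233.06, its scale is not named, and it serves below to describe, class and choose regions. The lists are not ranked by it, since scores of different lists may not be comparable. A score of exactly 3100 recurred in several regions of each list, for a reason that was not tested. Equal scores of 3100 are therefore not read as equal signal, nor the order of scores from 3100 up as a ranking. The Sox9 gene body was covered by peaks over 96.6% of the gene in control E11.5, over 81.3% in control E12.5, over 55.8% in the Sox9null-labelled list and over 54.3% in the Sox9cKO-labelled list. Of 10 limb mesenchyme genes, 10 carried a peak near an end in control E11.5 and in the Sox9cKO-labelled list, and 9 in each of the other lists. These 10 genes were chosen after the values were seen, so their counts are no check of the tissue. Of 10 genes per list that mark other cells of the limb bud, a peak lay at the gene end of 7 muscle, 6 endothelial, 7 ectodermal, 3 nerve and 3 blood genes in the E11.5 control. The counts were 4, 3, 5, 2 and 2 in the E12.5 control, 4, 3, 4, 2 and 2 in the Sox9null-labelled list, and 7, 8, 5, 3 and 6 in the Sox9cKO-labelled list. Their part in the results below was not tested. The E11.5 control and the Sox9cKO-labelled list thus had more marker genes of other cells with a peak than the other lists, except for the ectodermal count of the Sox9cKO-labelled list, which equalled that of the E12.5 control. These 2 lists also held the most peaks, 36045 and 36937. They marked 72.6% and 75.5% of union regions that overlap a gene, against 59.1% in the Sox9null-labelled list and 66.8% in the E12.5 control. The marker counts are therefore not read as amounts of other cells.

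Among the desert regions with high scores in all 4 lists was one over the microRNA gene Mir125b-1, so microRNA sequences of the deserts are given first. The region, chr9:41578405-41588467 in mm10, was 10063 bp wide, lay 318 kb from the nearest protein-coding gene in the Ubash3b-Gm40514 desert, and had a best score of 3100 in each list. Of 1005 microRNA hairpins in the RefSeq table (GRCm38.p6), 104 lay at least 100 kb from a protein-coding gene, and 3 of these overlapped a desert region. Mir205, an epithelial microRNA gene, overlapped a region marked in all 4 lists, with scores of 284 in the E11.5 control, 441 in the Sox9null-labelled list, 756 in the E12.5 control and 540 in the Sox9cKO-labelled list. Mir802 lay in a region marked only in the Sox9null-labelled list, with a score of 86.2. In the mature sequences below the capitals mark the seed, the bases that pair with a target.
miR-125b-5p: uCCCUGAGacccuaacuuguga
miR-205-5p: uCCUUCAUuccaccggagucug
miR-100-5p: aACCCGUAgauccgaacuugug
miR-99a-5p: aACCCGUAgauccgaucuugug
let-7c-5p: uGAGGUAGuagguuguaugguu
The genes of miR-100 and miR-99a, which share the seed ACCCGUA, lie in the same deserts as 2 desert regions with a score of 3100 in each list, but not under a region. The Mir100 hairpin was 4622 bp from the nearest desert region, which was marked in all 4 lists. The Mir99a hairpin, beside that of let-7c in the Usp25-Cxadr desert, was 3885 bp from a region marked only in the E12.5 control and the Sox9null-labelled list.

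In the 5535 desert regions lay 265 promoter windows of 221 non-coding or other genes. Long non-coding RNA genes start inside some of the regions, and 4 of their promoter windows are printed here. Each window runs from 250 bases before to 50 bases after a start, on the strand of the gene, from RefSeq for GRCm38.p6. They are the windows with the highest lowest score over the 4 lists in the 2 deserts of the miR-125b and miR-99a families, the fullest desert (Rps24-Zmiz1) and the densest desert with over 30 regions (Gas1-Dapk1), and were chosen after their values were seen. The capitals mark CG dinucleotides.
Gm51670, chr9:41579597-41579896, minus strand: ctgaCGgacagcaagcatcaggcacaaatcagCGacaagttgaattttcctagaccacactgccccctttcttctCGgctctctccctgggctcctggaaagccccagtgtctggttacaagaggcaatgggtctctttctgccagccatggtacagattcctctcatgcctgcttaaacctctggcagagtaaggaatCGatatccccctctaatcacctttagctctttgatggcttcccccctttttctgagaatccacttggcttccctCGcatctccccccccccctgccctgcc
Mir99ahg, chr16:77329078-77329377, plus strand: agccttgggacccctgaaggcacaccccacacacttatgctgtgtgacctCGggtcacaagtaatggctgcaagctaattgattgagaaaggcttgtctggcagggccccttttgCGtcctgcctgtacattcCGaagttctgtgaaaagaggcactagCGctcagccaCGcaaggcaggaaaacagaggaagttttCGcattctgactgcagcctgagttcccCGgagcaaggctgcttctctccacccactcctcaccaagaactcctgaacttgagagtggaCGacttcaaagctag
Gm32123, chr14:25109011-25109310, plus strand: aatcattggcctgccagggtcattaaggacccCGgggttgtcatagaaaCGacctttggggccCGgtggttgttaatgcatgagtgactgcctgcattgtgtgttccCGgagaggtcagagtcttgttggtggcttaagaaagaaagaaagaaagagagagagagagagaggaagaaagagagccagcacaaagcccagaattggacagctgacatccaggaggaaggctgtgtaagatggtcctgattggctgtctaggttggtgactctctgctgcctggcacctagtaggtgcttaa
Gm35333, chr13:60434711-60435010, minus strand: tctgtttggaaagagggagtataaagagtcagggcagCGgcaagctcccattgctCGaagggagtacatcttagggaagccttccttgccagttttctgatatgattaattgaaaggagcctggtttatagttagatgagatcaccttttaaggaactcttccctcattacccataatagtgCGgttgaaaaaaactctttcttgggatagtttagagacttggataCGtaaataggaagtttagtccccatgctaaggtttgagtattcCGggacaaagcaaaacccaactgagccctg
The windows hold 5, 8, 4 and 5 CG dinucleotides in this order. Over the 32851 windows of the table the median was 7 and 43.5% held 10 or more. In deserts the median was 4 for the 136 windows in regions marked in all 4 lists, 4 for the 129 in regions marked in 1 to 3 lists, and 2 for the 1809 windows outside the regions, with 16.9%, 10.9% and 4.64% holding 10 or more. Desert windows under a region thus held more CG dinucleotides than those without, and fewer than promoters as a whole. The core SOX motif, AACAAT or ATTGTT on the opposite strand, was in 19.9% of windows in regions marked in all 4 lists (14.0% to 27.3%), in 19.9% of desert windows outside the regions, and in 10.7% of all windows. The share hardly differed between desert windows with and without a region, and the 4 windows printed here do not hold it.

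Each list but the E12.5 control marked a smaller share of desert regions than of all union regions. The E12.5 control marked the most desert regions. It marked 3557 (64.3%, 63.0% to 65.5%), where it marked 64.1% of all union regions. The E11.5 control marked 2635 (47.6%, against 66.2% of all), the Sox9null-labelled list 2762 (49.9%, against 55.1%) and the Sox9cKO-labelled list 2924 (52.8%, against 69.9%). The E12.5 control held the most desert regions under each of the 9 alternative ways of counting in which it was kept and no list was left out. Exchanging the Sox9-deficient lists, which is among them, cannot change this. With equally many top peaks per list the margin was small, 2818 against 2767 in the Sox9null-labelled list. The order of the E11.5 lists was less firm: among the upper 50% by score the control marked 827 and the Sox9null-labelled list 824, and with equally many top peaks per list they marked 1881 and 2767.

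Desert peaks were wider in the E12.5 control and the Sox9null-labelled list than in the others. Peaks covered 6.83 Mb of desert regions in the E12.5 control and 5.62 Mb in the Sox9null-labelled list, which was 10.3% and 9.41% of all covered sequence. They covered 3.32 Mb (6.38%) in control E11.5 and 4.20 Mb (6.96%) in the Sox9cKO-labelled list. The median desert peak was 1426 bp wide for control E12.5 and 1505 bp for the Sox9null-labelled list, but 876 bp for control E11.5 and 1029 bp for the Sox9cKO-labelled list. Outside deserts the medians were 1742, 1807, 1180 and 1375 bp in the same order, so the same lists had the wider peaks there. Desert peaks had lower scores than other peaks in each list, with medians of 95.7 against 176 in the E11.5 control and 133 against 266 in the E12.5 control.

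A desert region was marked in all 4 lists in 1318 cases (23.8%, 22.7% to 24.95%), where 40.1% of all union regions were. In 1 list alone were 2470 (44.6%, 43.3% to 45.9%), against 34.7% of all. Regions of the E12.5 control alone made the largest group of these, 978 (17.7%, against 8.71% of all). The Sox9cKO-labelled list alone marked 607 (10.97%, against 12.1%), the E11.5 control alone 508 (9.18%, against 10.6%) and the Sox9null-labelled list alone 377 (6.81%, against 3.26%). Desert regions of a single list thus exceeded the background for the E12.5 control and the Sox9null-labelled list, and not for the other lists.

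**Figure D1:**
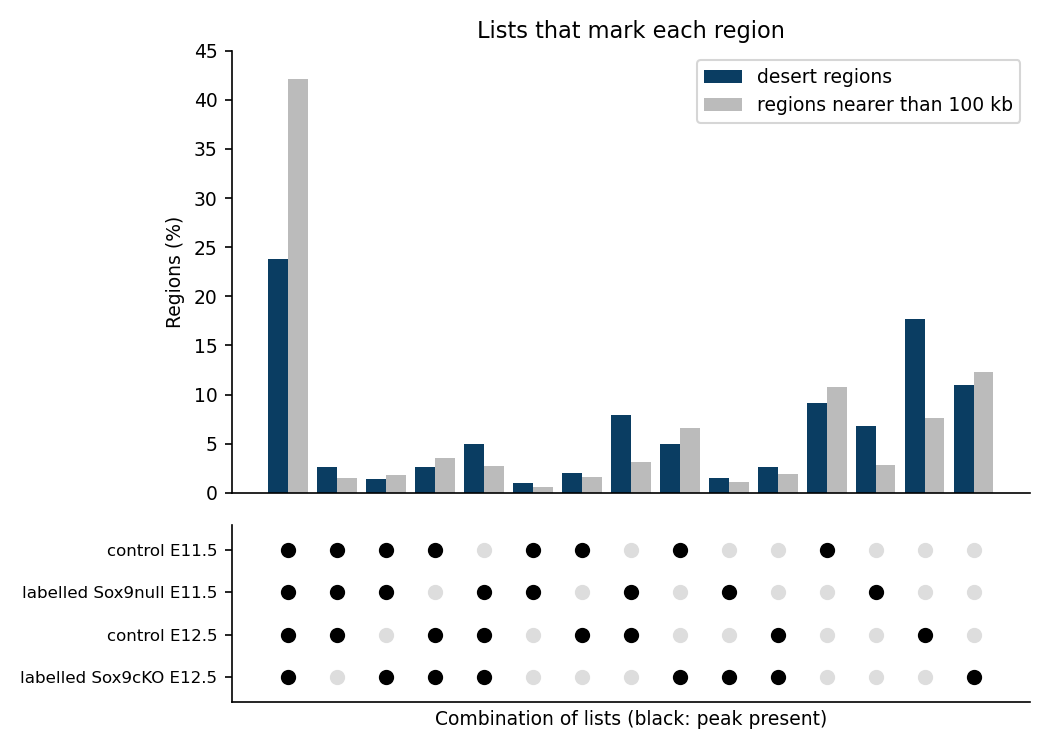
Bars give the percent of the 5535 desert regions (dark) and of the 43832 nearer regions (grey) marked by each combination of the 4 lists, shown by black dots under the bars. Desert regions have the lower bar for all 4 lists (23.8% against 42.1%) and the higher bar for the E12.5 control alone (17.7% against 7.58%).

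Regions in all 4 lists were the wide and high-scored ones. Part of this holds by construction, since a region's width spans the merged peaks of its lists and its best score is their highest. Their median width was 2667 bp and their median best score 435, against 890 bp and 66.6 for regions of 1 list. Of the 162 desert regions at least 5 kb wide, 94.4% were marked in all 4 lists. Among regions whose best score was under 100, the share in all 4 lists was 0.462% in deserts and 0.475% elsewhere, and at scores of 100 to 200 it was 14.9% and 15.5%. At 200 to 500 it was 55.4% (52.2% to 58.5%) in deserts against 62.4% (61.2% to 63.5%) elsewhere, and at 500 or more 89.5% (86.9% to 91.7%) against 98.0% (97.8% to 98.2%). Within these classes the scores are not matched exactly. The intervals of desert and nearer regions were apart only in the classes from 200 up. These intervals take regions as independent, though many desert regions lie close together, so they may be too narrow. In each class the difference was smaller than that between 23.8% and 42.1% over all scores.

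The share marked by a list changed with distance from genes in different ways. From regions that overlap a gene to those at 500 kb or more, the share in the E11.5 control went from 72.6% to 37.1% and that in the Sox9cKO-labelled list from 75.5% to 43.3%. The E12.5 control marked 66.8% of regions that overlap a gene, 53.9% up to 10 kb from one and 57.8% at 10 to 50 kb, and between 61.99% and 64.6% in the classes from 50 kb out. The Sox9null-labelled list marked 59.1% of regions that overlap a gene, 45.5% up to 10 kb, 50.7% at 100 to 200 kb and 45.9% at 500 kb or more, with no steady course. The share in all 4 lists went from 47.7% to 14.9%.

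**Figure D2:**
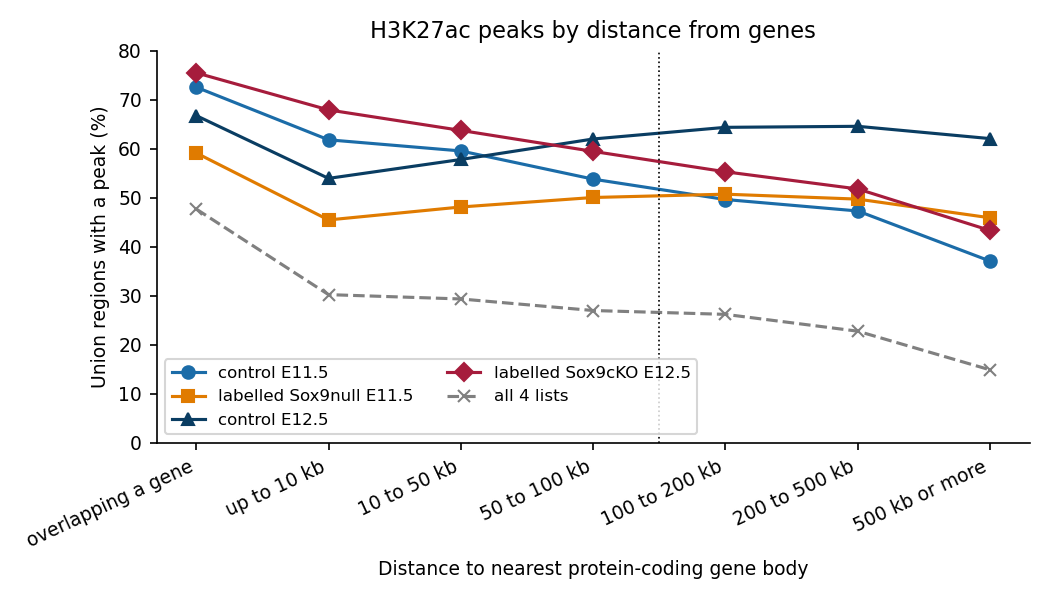
The lines give the percent of union regions with a peak in each list, and in all 4 lists (dashed), in 7 classes of distance to the nearest protein-coding gene body. The dotted line stands at 100 kb, and beyond it the E12.5 control stays at 62.1% to 64.6% while the E11.5 control falls from 49.6% to 37.1%.

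The desert regions had a median width of 1297 bp (1524 bp for nearer regions) and a median distance to a gene of 201 kb. There were 2779 at 200 kb or more and 464 at 500 kb or more. The farthest, 2186 kb from a gene, lay between Celf4, an RNA-binding protein gene, and Pik3c3, a lipid kinase gene. It was 2686 bp wide and was marked in all 4 lists with scores of 228, 696, 678 and 778 in the order E11.5 control, Sox9null-labelled, E12.5 control and Sox9cKO-labelled. The same order is used for every set of 4 values below. The 3 regions just inside the limit, at 100012, 100085 and 100090 bp, and the 3 just outside, at 99981, 99961 and 99959 bp, had best scores from 73.5 to 448 and were marked in 1 to 4 lists. The X chromosome held 80 desert regions and the Y chromosome 2.

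Desert regions were unevenly spread. The space at least 100 kb from genes came to 785 Mb and held 7.01 regions per Mb. Of the 1689 long gaps, 871 held none, among them 70 of the 227 gaps with at least 1 Mb of such space. In 218 gaps there was 1 region, while the 175 gaps with 10 or more held 63.6% of the 5507 regions that have a gene on both sides. The 100 fullest gaps held 47.5% and the 15 fullest held 743 regions (13.5%). The longest gap with a region, 4542 kb between the protocadherin genes Pcdh20 and Pcdh9, held 6.

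The fullest desert was that between Rps24, a ribosomal protein gene, and Zmiz1, a transcriptional coactivator gene (chromosome 14, 24496961 to 25457874). It held 99 regions, 37 of them in all 4 lists, and 52, 61, 77 and 51 were marked in the 4 lists. A run of 50 regions, each within the joining distance (given with the processing) of the next, stretched over 310 kb and was covered over 58.8, 94.1, 121 and 63.7 kb. With regions up to 10000 bp apart joined, the fullest run there held 22. The highest-scored region of the desert, 347 kb from Zmiz1 and 7093 bp wide, had scores of 2218, 1908, 3216 and 2489 and holds the start of the long non-coding RNA gene Gm32123, printed above. The E12.5 control had the most regions and the most covered sequence in this desert.

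The next fullest deserts flank genes of signalling and lipid metabolism. Between Slc4a3, an anion exchanger gene, and Epha4, a receptor of the ephrin family that guides motor axons in the limb (chromosome 1, 75559432 to 77367181), 71 regions were marked in 40, 36, 48 and 39 cases. Many lay at the Slc4a3 end, and the region with the highest lowest score there was 1592 kb from Epha4, with scores of 959, 1345, 1632 and 1790. Between Plpp3, which encodes a lipid phosphate phosphatase, and Usp24, a deubiquitinase gene, 65 regions were marked in 27, 43, 51 and 30 cases. Here the E12.5 control and the Sox9null-labelled list had most regions, and 11 were marked in these alone.

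Cell adhesion genes flank others of the 15. The desert between Cdh11, a cadherin of mesenchymal cells, and Cdh5, the cadherin of endothelium, held 50 regions (26, 29, 40 and 22). That between Ttll7, a tubulin-modifying enzyme gene, and Adgrl2, a latrophilin gene, also held 50 (11, 21, 36 and 16), of which 6 were in all 4 lists. The desert between Fat4, an atypical cadherin that acts in planar cell polarity, and Intu, a cilium and polarity gene, held 46 (13, 24, 37 and 11) with 3 in all 4 lists. In Fat4-Intu and Ttll7-Adgrl2, few regions were shared by all lists, where Cdh11-Cdh5 had 17.

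Genes of the limb transcription factor list described below flank 3 of the 15. The desert of Bcl11a, a zinc finger repressor gene, and Fancl held 42 regions (16, 32, 29 and 25). That of Ebf1, a regulator of B cells and mesenchyme, and Clint1 held 41 (17, 25, 29 and 22), and that upstream of Sox9 held 38. Gas1-Dapk1, beside the hedgehog co-receptor gene Gas1, also held 38 (17, 24, 32 and 21), in only 224 kb of space far from genes, or 170 regions per Mb. All 38 formed 1 run of 217 kb, covered over 30.5, 85.5, 106 and 46.6 kb, but with regions up to 10000 bp apart joined the fullest run held 23. The region at the start of Gm35333 had scores of 2566, 2740, 3100 and 3001.

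The other deserts of the 15 were Mki67-Mgmt with 47 regions (27, 27, 37 and 26), Nrsn1-Hdgfl1 with 44 (13, 34, 30 and 12), Zfp608-Gramd3 with 38 (22, 21, 25 and 24), Cd83-Jarid2 with 37 (22, 14, 25 and 20) and Npvf-Gm38821 with 37 (18, 21, 27 and 27). Mki67 encodes a marker of dividing cells, Mgmt a DNA repair enzyme and Jarid2 a cofactor of Polycomb repression. In 11 of the 15 deserts the E12.5 control alone had the most regions; the exceptions were Nrsn1-Hdgfl1 and Bcl11a-Fancl, led by the Sox9null-labelled list, and Gm11677-Sox9 and Npvf-Gm38821, where it shared the highest count.

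**Figure D3:**
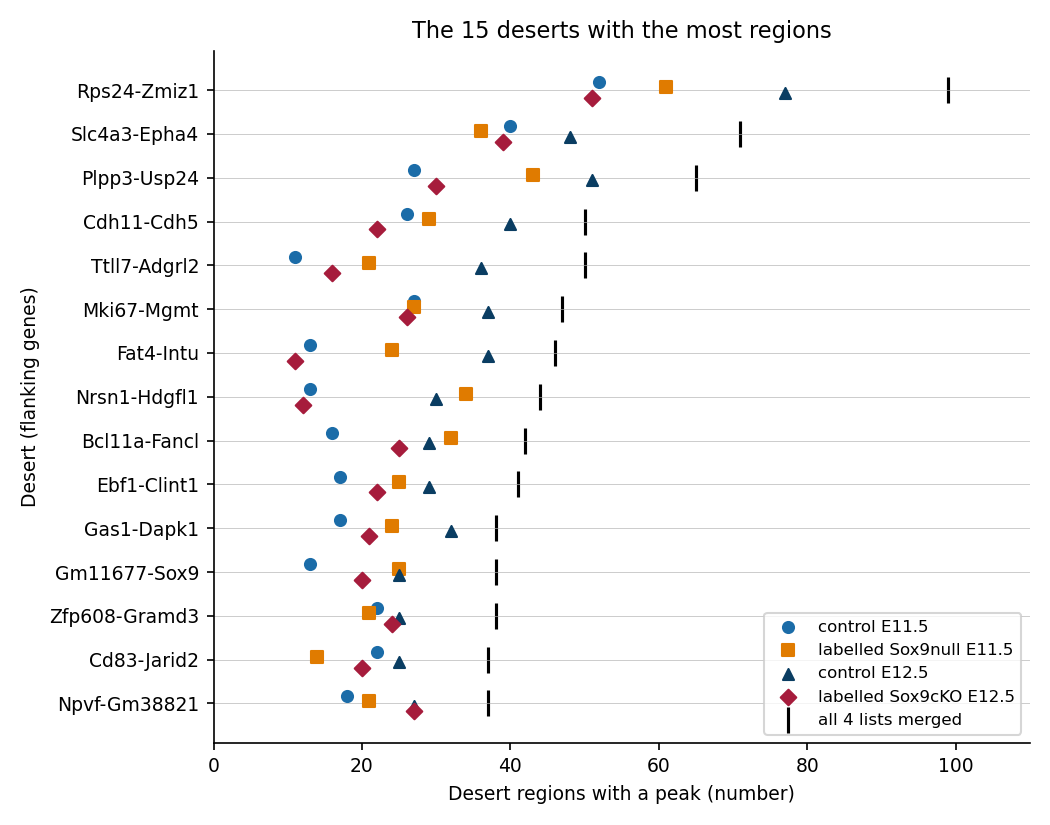
For the 15 deserts with the most regions, symbols give the number of desert regions marked in each list and the black tick the number over the merged lists. Rps24-Zmiz1 leads with 99 regions, and Fat4-Intu spans 11 to 37 between lists.

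By density, the 5 leading deserts with at least 5 regions were Gm30733-Prex1 (201 per Mb, 16 regions), Ets2-Psmg1 (187 per Mb, 11 regions), Gas1-Dapk1 (170 per Mb), Lpar1-Olfr267 (163 per Mb, 5 regions) and Tut7-Gas1 (152 per Mb, 23 regions). Ets2 encodes an ETS transcription factor and Lpar1 a lysophosphatidic acid receptor. Gas1 thus had dense deserts on both sides. Regions of Tut7-Gas1 were marked in 14, 15, 21 and 15 cases, and 12 of its 23 were in all 4 lists. The Sox9 desert, by comparison, held 44.4 per Mb.

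The desert between Gm11677 and Sox9 (chromosome 11, 111726302 to 112782209) held 38 regions, marked in 13, 25, 25 and 20 cases, with 7 in all 4 lists. Human deletions and translocations in the matching interval cause skeletal and jaw malformations, since it holds distant Sox9 enhancers. The region with the highest lowest score, 817 kb from Sox9 and 4765 bp wide, had scores of 250, 759, 781 and 708. That at 368 kb had 231, 895, 620 and 665, and that at 160 kb had 226, 210, 421 and 155. The region at 725 kb had scores of 194, 376, 785 and 109. These 4 are among the 7 regions marked in all lists.

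Other regions of this desert were absent from a control. The regions 822, 788, 555 and 542 kb from Sox9 were marked in each list except the E11.5 control, with scores in the Sox9null-labelled list of 483, 234, 312 and 145. The regions at 642, 363 and 255 kb were marked in both Sox9-deficient lists and in neither control, with scores from 51.2 to 116. Over all desert regions this pattern made up 1.48%, and over all union regions 1.15%. No region of this desert was marked in both controls alone. On the other side, the desert between Sox9 and Slc39a11 held 15 regions (8, 7, 6 and 10). Its leading region, 226 kb from Sox9 and 5112 bp wide, had scores of 553, 953, 1428 and 1268.

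**Figure D4:**
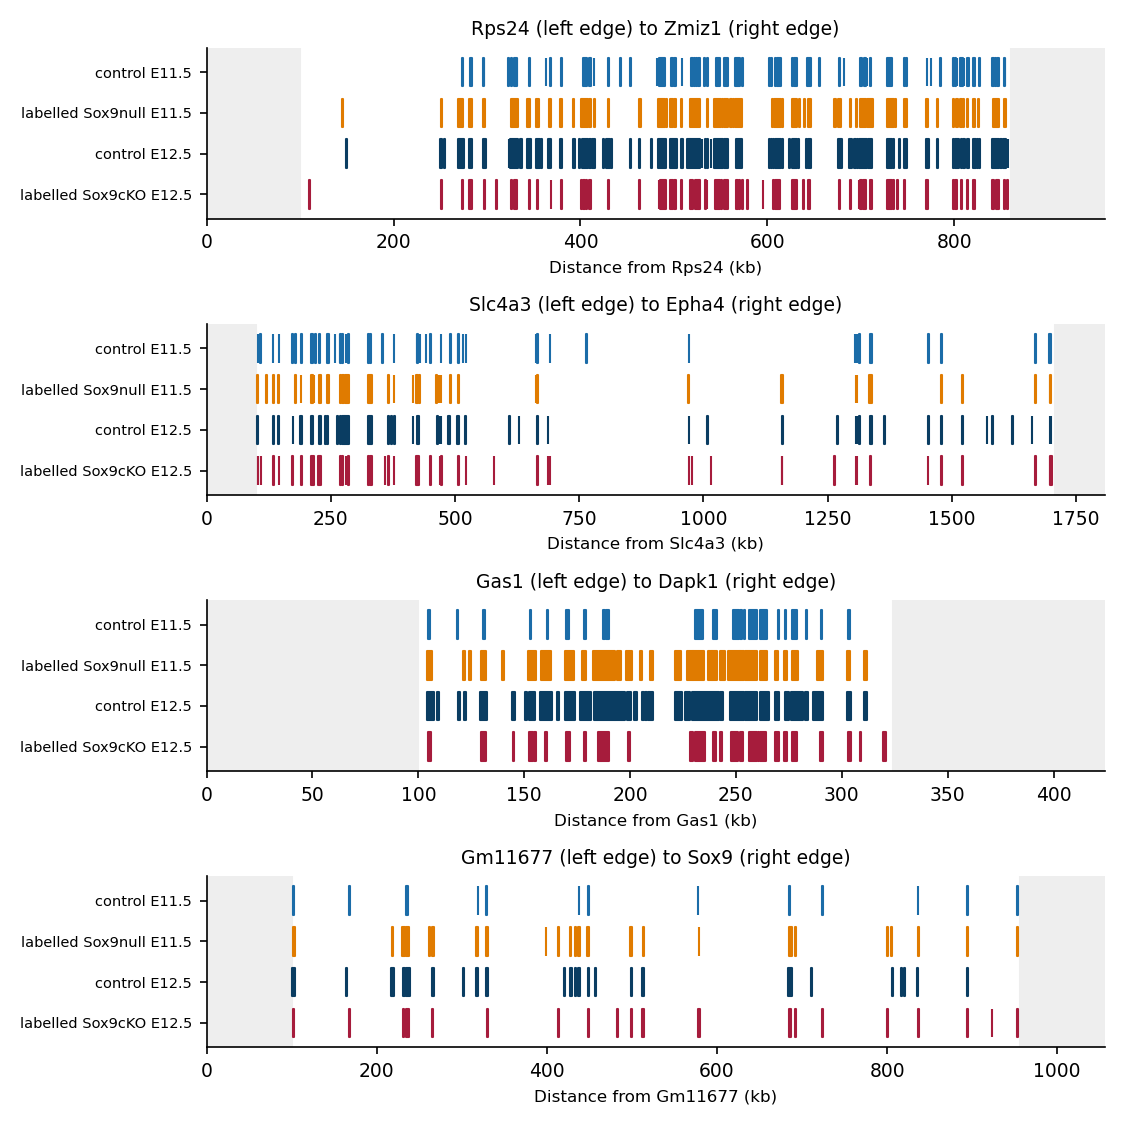
Coloured bars mark the peaks of each list that overlap desert regions in 4 deserts, drawn to scale by distance from the left flanking gene (kb). Grey ends lie within 100 kb of a gene; in Gas1-Dapk1 the peaks lie densely, and in Gm11677-Sox9 they are scattered and fewest (13) in the E11.5 control.

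Genes in 4 lists of limb biology were used to describe what flanks the deserts. Gaps beside 127 limb and skeletal transcription factor genes held 929 desert regions, 16.9 per Mb, and 91 of 110 such gaps had at least 1. Beside 81 genes of signalling molecules and their modulators there were 502 (14.8 per Mb, 53 of 68 gaps). Beside 50 genes of cartilage, tendon and mesenchymal matrix there were 187 (12.7 per Mb, 18 of 21 gaps). Beside 65 genes of cadherins, protocadherins and neuronal adhesion there were 275 (2.17 per Mb, 47 of 85 gaps). All long gaps together had 7.01 per Mb, so the neuronal adhesion list lay below this level and the others above. Cdh11-Cdh5, with 50 regions, and Ncam1-Plet1, with 11, were counted in the matrix list and not the adhesion list, though Cdh11 is a cadherin gene. Fat4-Intu, with 46 regions, was in none of the 4 lists. The levels of the matrix and adhesion lists depend in part on where such genes were placed. The gene lists were chosen with earlier results of these data known, so these levels describe the lists and are no independent finding.

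The sharing of regions between lists was counted for each group of genes. In all 4 lists were 24.0% of regions beside transcription factor genes, 26.5% beside signalling genes, 25.7% beside matrix genes and 14.5% beside adhesion genes, against 23.9% over all gaps. The E12.5 control marked 66.8%, 65.1%, 70.1% and 60.4%, against 64.6% over all gaps. Over all gaps, 2.05% of regions were marked in both controls alone and 1.49% in both Sox9-deficient lists alone. Beside matrix genes these were 5 regions (2.67%) and 0, beside transcription factor genes 19 (2.05%) and 17 (1.83%), beside signalling genes 12 (2.39%) and 8 (1.59%), and beside adhesion genes 2 (0.727%) and 4 (1.45%). The counts behind these shares are small, and nothing is read from them about a group of genes.

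Among transcription factor genes, Prl5a1-Sox4 held 35 regions (23, 18, 29 and 23), Cmpk2-Sox11 held 34 (20, 25, 30 and 22) and Mc2r-Tcf4 held 34 (14, 17, 30 and 18), after those of Bcl11a, Ebf1 and Sox9 above. Sox4 and Sox11 encode SOX factors of mesenchymal progenitors. The other 48 deserts of this list with at least 5 regions held 5 to 34. Among signalling genes, Wdr11-Fgfr2 held 26 (7, 16, 21 and 8), Epha7-Map3k7 held 22 (10, 10, 16 and 10) and Cxcl12-Zfp637 held 21 (14, 10, 10 and 16), and 27 others held 5 to 20. Fgfr2 is a fibroblast growth factor receptor gene and Cxcl12 a chemokine gene. In Cxcl12-Zfp637 the E11.5 control and the Sox9cKO-labelled list marked more regions than the other lists. In Tmem72-Cxcl12, on the other side of the gene, they marked fewer (8 regions, marked in 3, 5, 6 and 4 cases), as in Wdr11-Fgfr2.

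Among matrix genes, Matn1-Ptpru held 23 regions (15, 4, 5 and 13), Fn1-Mreg 18 (11, 11, 13 and 11), Adamts5-N6amt1 17 (3, 8, 14 and 4), Sntb1-Has2 12 (6, 7, 10 and 7) and Ncam1-Plet1 11 (6, 6, 10 and 7), after Cdh11-Cdh5. Matn1 encodes a cartilage matrilin, Fn1 fibronectin, Adamts5 an aggrecanase and Has2 a hyaluronan synthase. Another 5 deserts of this list held 5 to 10. Among adhesion genes, after Ttll7-Adgrl2, Ets1-Kirrel3 held 22 (17, 10, 14 and 16), Pcdh18-Slc7a11 held 20 (4, 15, 18 and 7), Adgrl2-Adgrl4 held 18 (5, 9, 11 and 9), Got2-Cdh8 held 13 (5, 3, 5 and 6) and Pabpc4l-Pcdh18 held 12 (3, 7, 9 and 3), and 12 others held 5 to 12. Pcdh18 had a fuller desert on the Slc7a11 side than on the longer Pabpc4l side.

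Few deserts lay beside marker genes of other cells. Gaps beside the 10 endothelial markers held 52 regions, 50 of them in Cdh11-Cdh5, beside the 10 blood markers 15, beside the 10 nerve markers 10, beside the 10 muscle markers 1 and beside the 10 ectodermal markers 0.

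Deserts known for limb enhancers were picked after their values were seen. Atp5g3-Lnpk, the desert beside the HoxD genes that drives their expression in digits, held 25 regions (10, 23, 18 and 15), covered over 17.2, 83.7, 69.2 and 29.2 kb. Mtx2-Gm50595, on the side that acts in the forearm, held 9 (6, 3, 5 and 5). Etnk1-Sox5, beside the gene of a SOX partner of Sox9, held 17 regions (5, 4, 14 and 1), of which 1 was in all 4 lists. AW209491-Gli3, beside the gene of a hedgehog effector, held 14 (4, 6, 14 and 5), and Ttc32-Osr1, beside the gene of a connective tissue regulator, held 14 (6, 6, 13 and 2). The deserts of Sox5, Gli3 and Osr1 were marked mainly in the E12.5 control, and the digit desert of HoxD least in the E11.5 control. This does not hold for limb deserts in general. Med13l-Tbx3 (14, 8, 9 and 14) and Veph1-Shox2 (12, 6, 11 and 9) had more regions in the E11.5 control. Beyond the 6 fullest, the transcription factor list had 48 deserts with at least 5 regions. Of these, 29 had more regions in the E12.5 than the E11.5 control and 16 fewer.

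Between the controls, more desert regions were marked at E12.5 alone than at E11.5 alone. There were 1834 in the E12.5 and not the E11.5 control (33.1%, 31.9% to 34.4%, against 17.3% of all union regions) and 912 in the E11.5 and not the E12.5 control (16.5%, 15.5% to 17.5%, against 19.4% of all). Both marked 1723 (31.1%, against 46.8% of all). Of the 818 deserts, 373 had more regions at E12.5 and 237 fewer, and of the 175 with at least 10 regions these were 121 and 42. With equally many top peaks the shares were 34.6% and 12.4%, and the E12.5 control was still the higher.

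The largest excess at E12.5 was in Rps24-Zmiz1, Ttll7-Adgrl2, Plpp3-Usp24 and Fat4-Intu, given above, and in Mpdz-Nfib, where the controls marked 4 and 22 regions. Nfib encodes a transcription factor of lung and brain development. The opposite held in Matn1-Ptpru (15 and 5), Foxl1-1700018B08Rik (17 and 10), Sall1-Tox3 (21 and 15), Tfap2c-Bmp7 (9 and 3) and Prok2-Rybp (7 and 1). Sall1 encodes a zinc finger factor of digit patterning, Bmp7 a bone morphogenetic protein of the limb and Tfap2c an ectodermal factor. In each of these 5 the Sox9cKO-labelled list marked more regions than the Sox9null-labelled list, with 13 and 4, 14 and 8, 29 and 20, 7 and 4, and 4 and 0.

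**Figure D5:**
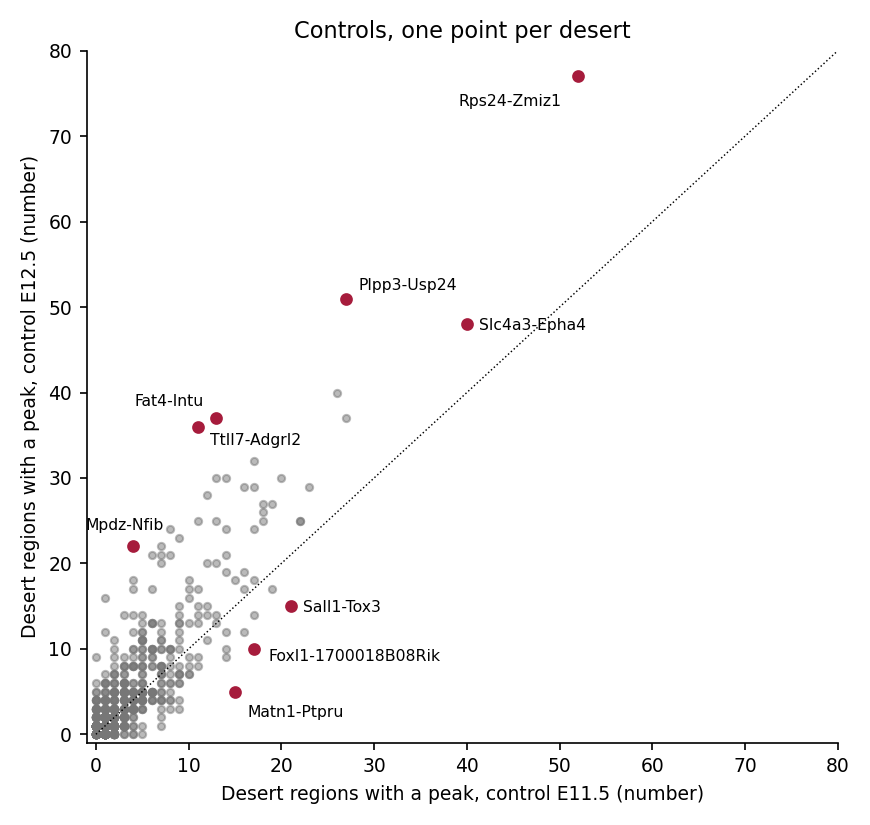
Each point is 1 of the 818 deserts, placed by the number of desert regions marked in the E11.5 control (horizontal) and the E12.5 control (vertical); points on the dotted line have equal numbers. Rps24-Zmiz1 (52 and 77) and Plpp3-Usp24 (27 and 51) lie above the line, and Matn1-Ptpru (15 and 5) and Sall1-Tox3 (21 and 15) below it.

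Between Sox9-deficient and control lists of the same stage, somewhat more regions were present in the deficient list alone at E11.5, and more in the control alone at E12.5. The kind of Sox9 loss also differs by title between the stages, so stage and kind of loss cannot be told apart. At E11.5, 1043 regions were in the control and not the Sox9null-labelled list (18.8%, against 22.1% of all) and 1170 in the latter and not the control (21.1%, against 11% of all). At E12.5, 1673 were in the control and not the Sox9cKO-labelled list (30.2%, against 15.6% of all) and 1040 the other way (18.8%, against 21.5% of all). Of the E11.5 control's desert regions 60.4% were also in the Sox9null-labelled list, and of the E12.5 control's 53.0% in the Sox9cKO-labelled list. Among regions nearer to genes these overlaps were 67.2% and 78.5%. With the 2 Sox9-deficient lists exchanged, as the file names have it, the desert overlaps were 69.0% and 61.1%, each higher than with the titles, and those of nearer regions 79.0% and 77.2%.

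Regions whose presence followed Sox9 status in both stages were few. Both controls and neither Sox9-deficient list marked 113 regions (2.04%, 1.70% to 2.45%, against 1.64% of all union regions). Both Sox9-deficient lists and neither control marked 82 (1.48%, 1.195% to 1.84%, against 1.15% of all). These shares lie close to the background, and with equally many top peaks the order turned, with 1.25% and 1.73%. The groups do not depend on which Sox9-deficient list is which. By desert, the largest excess of regions of both controls was in Rps24-Zmiz1 (4 against 1), and 9 deserts had an excess of 2, among them Mki67-Mgmt, Gas1-Dapk1, Cd83-Jarid2 and Prl5a1-Sox4 (2 against 0 in each). The opposite excess was largest in Gm11677-Sox9 (3 against 0), Bcl11a-Fancl (2 against 0) and Dok5-Cbln4 (3 against 1), and 56 deserts tied at an excess of 1, among them Ttll7-Adgrl2 and Ebf1-Clint1. Among tied deserts those with the most regions are named.

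The regions of both controls were spread over 97 deserts, with at most 4 in one (Rps24-Zmiz1), and their median best score was 105. The highest-scored was a region of 3725 bp in Tmem167-Atp6ap1l, 305 kb from a gene, with scores of 64.3 at E11.5 and 626 at E12.5. A region of 2317 bp in Cd109-Col12a1, beside the gene of a fibril-associated collagen, had 115 and 412. Next to Osr1, in Ttc32-Osr1, a region 155 kb from a gene had 53.0 and 176. These 3 were picked after their values were seen.

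The regions of both Sox9-deficient lists were spread over 73 deserts, with at most 3 in one, and their median best score was 93.1. The highest-scored, 1746 bp wide in Irx1-Irx2, between genes of Iroquois homeobox factors, had 70.0 in the Sox9null-labelled list and 357 in the Sox9cKO-labelled list. A region of 2316 bp in Maf-Dynlrb2, beside the gene of a factor of late cartilage, had 252 and 105. A region of 2090 bp in Pdgfc-Ctso, beside a growth factor gene, had 206 and 190. Scores of both kinds of region were thus mostly low, and 17 deserts held both kinds. These 3 were picked after their values were seen.

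Regions of 2 lists that, by the sample titles, cross stage and Sox9 status were more frequent. The E12.5 control and the Sox9null-labelled list alone shared 438 regions (7.91%, 7.23% to 8.65%, against 3.68% of all), with a median best score of 135. The E11.5 control and the Sox9cKO-labelled list alone shared 274 (4.95%, against 6.45% of all), with a median best score of 113. By stage as labelled, both E11.5 lists alone shared 53 (0.958%, against 0.632%) and both E12.5 lists alone 145 (2.62%, against 1.97%). With the Sox9-deficient lists exchanged, as the file names have it, this turns round. The 438 and 274 regions are then shared by lists of the same stage, and the 53 and 145 cross stage. The lists with wide desert peaks, of 1426 and 1505 bp, were those that shared the 438 regions. The part of peak width, and of the exchanged file names, in this was not tested.

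A small set of very high scores also followed this split. Of 155 desert regions with a score of 1500 or more in a list, 137 were marked in all 4 lists. Of the other 18, 17 were marked in the E11.5 control and the Sox9cKO-labelled list alone, and 1, in Mdfic-Tfec, in each list but the E11.5 control. Of these, 8 lay in a block of 17 desert regions at the start of the assembled chromosome 9 (2999852 to 3038570), 16 of which had this pattern. Another 4 lay in Lrrc4c-Iftap on chromosome 2 (98661889 to 98667590), and 1 lay over the ribosomal RNA pseudogene Rn18s-rs5 on chromosome 17 (39842843 to 39849037) with scores of 3100 in both lists. Of 45 desert regions in the first 4 Mb of a chromosome, 24 had this pattern. Whether the very high scores of these 2 lists alone come from enhancers was not tested, and they are not read as such. In the remaining 257 regions of this pattern each score was under 1500.

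The 3 highest-scored desert peaks of each list were also looked up, and regions not described elsewhere are given here. In the E11.5 control and the Sox9cKO-labelled list more desert regions had a score of 3100 than were picked, so these picks are tied with others. A region of 6296 bp in Cd24a-Qrsl1, beside a surface glycoprotein gene, had scores of 2748, 1678, 3233 and 3100. One of 3904 bp in Rpl14-Ctnnb1, beside the gene of beta-catenin, an effector of WNT signalling, had 2364, 2202, 3100 and 3110. One of 3894 bp in Tut7-Gas1 had 1199, 2577, 3214 and 2091, one of 11047 bp in Npvf-Gm38821 had 1012, 1402, 2217 and 3100, and a second one in Ubash3b-Gm40514 had 2427, 3145, 3100 and 3100. A region of 5858 bp in Nr5a2-Ptprc had 3100 in each list. Each of these 6 was marked in all 4 lists.

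The 5 widest desert regions lay in 3 deserts. A region of 18934 bp in Haao-Zfp36l2 (chromosome 17, 83949360 to 83968293), 100.4 kb from a gene, was covered over 13773, 18332, 18722 and 16561 bp. Zfp36l2 encodes a protein that destabilises messenger RNA. The next were 17720, 17499 and 15499 bp in Psmd7-Zfhx3, beside a homeobox factor gene, and 15959 bp in Gas1-Dapk1. The region of 17720 bp was covered over 7066, 16258, 17636 and 12436 bp, with scores of 417, 846, 2900 and 912. The region of 18934 bp had scores of 2944, 2236, 2101 and 3100. In both of these regions the peaks of the E11.5 control covered the fewest bases. Each of the 5 was marked in all 4 lists.

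By the joining distance, desert regions fell into 3095 runs. Of these 1995 were 1 region alone (36.04% of all desert regions), 167 held at least 5 and 26 at least 10. After Rps24-Zmiz1 and Gas1-Dapk1, the fullest were 19 regions over 145 kb in Plpp3-Usp24 (9 with regions up to 10000 bp apart joined) and 18 over 105 kb in Tut7-Gas1 (18 under both). The latter was covered over 24.8, 44.8, 56.7 and 29.2 kb. A run of 12 regions over 58.0 kb in Wdr11-Fgfr2 had none in all 4 lists and was covered over 1.29, 7.89, 12.497 and 1.51 kb. Foxl1-1700018B08Rik went the other way, with 15 regions over 70.8 kb covered over 13.7, 8.10, 11.6 and 15.2 kb.

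Many desert regions touched long non-coding RNA genes. The body of one overlapped 1442 regions (26.1%, 24.9% to 27.2%), and an end of one lay within 1 kb of 525 (9.49%, 8.74% to 10.3%). For regions in all 4 lists the shares were 31.9% and 15.9% (14.0% to 17.9%), and for those in 1 list 22.4% and 6.11% (5.23% to 7.13%). A gene end lay near 19.3% of regions with a best score of at least 500. Promoter windows of 221 non-coding or other genes lay in desert regions, out of 1754 genes with a window at least 100 kb from protein-coding genes. Shared and high-scored regions thus lay at non-coding gene ends more often than regions of 1 list. Regions in all 4 lists were also wider, with a median of 2667 bp against 890 bp, and a wider region meets a gene end more easily. The part of width was not tested, and these shares are not given for regions nearer to genes. When any annotated gene was counted, 629 regions lay at least 100 kb away, of which 18.8% were in all 4 lists.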

How the data were processed

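The 4 deposited H3K27ac peak lists were used (1 per sample), and the other 20 of the 24 samples were not analysed here. Per the submitters' processing notes the tools were CASAVA 1.8 and deepTools and the build mm10. The deposited peak names give MACS as the caller. The sources used here give neither its version nor the aligner or any use of input libraries. Peaks were called per sample. The score is the authors' own deposited value per peak, of unnamed scale.

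Overlapping peaks (at least 1 bp) were merged with Python 3.11.15, pandas 2.3.3 and numpy 2.4.6. Distances ran from the region edge to the nearest of 21887 protein-coding gene bodies (RefSeq, GRCm38.p6, the coordinates of mm10). A list marks a region by any overlapping peak. Gene ends were taken as 1000 bp around either end, and runs joined regions up to 12500 bp apart. Intervals are 95% Wilson intervals from scipy 1.17.1. The merging and distances were tested on simulated peaks.

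Groups follow the sample titles. Named are the 15 fullest and 5 densest deserts, up to 6 deserts per gene list, the 5 with the largest excess per comparison, the 5 widest regions, the 3 highest-scored peaks per list, the farthest region and those at the limit of 100 kb, and others as stated. The members and gene lists were chosen with earlier results of these data known. The limb mesenchyme list and the printed windows were chosen after the values were seen. Alternatives changed the distance, score filter, merging, gene set, chromosomes, label assignment and the lists used. A joining distance of 10000 bp was added after seeing the data.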

Additional observations from a re-analysis of the deposited data

Results flagged for a closer look

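In 1 library per group, the number of desert regions marked moved in opposite directions at the 2 stages: by 127 from control to the Sox9null-labelled list at E11.5 and by -633 from control to the Sox9cKO-labelled list at E12.5, a difference of 760. The difference was not tested. By title, the Sox9-deficient sample is Sox9null at E11.5 and Sox9cKO at E12.5, so stage and kind of Sox9 loss cannot be told apart. With the Sox9-deficient lists exchanged the moves were 289 and -795. Among the 15 fullest deserts the 2 moves had opposite signs in 10 as labelled and in 7 with the lists exchanged.

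The difference between the moves was 35 regions in Rps24-Zmiz1, 37 in Plpp3-Usp24, 21 in Cdh11-Cdh5, 30 in Ttll7-Adgrl2, 37 in Fat4-Intu and 39 in Nrsn1-Hdgfl1. It was 20 in Bcl11a-Fancl, 15 in Ebf1-Clint1, 18 in Gas1-Dapk1 and 17 in Gm11677-Sox9. These differences were not tested either. With the Sox9-deficient lists exchanged, 5 of these 10 deserts no longer had opposite signs (Rps24-Zmiz1, Cdh11-Cdh5, Fat4-Intu, Bcl11a-Fancl and Gm11677-Sox9), and the differences were 15, 11, 7, 20, 11, -5, 6, 9, 12 and 7 in the order named above. In Nrsn1-Hdgfl1 the moves were 21 and -18, and with the lists exchanged they were -1 and 4, so the difference changed sign.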

How the results depend on the processing

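Values are given in the order number of regions, percent in all 4 lists, in 1 list alone, in both controls alone, in both Sox9-deficient lists alone, in the E12.5 and not the E11.5 control and the reverse, then the overlaps of the control with the Sox9-deficient list at E11.5 and E12.5, leaving out those that moved by less than their counting error (under 1.5 times for the number). At 50 kb there were 8500 regions, with 30.9% in the E12.5 and not the E11.5 control and an E12.5 overlap of 55.6%. At 200 kb there were 2779, with 21.5% in all 4 lists, 35.2% in the E12.5 control but not that of E11.5, and an E12.5 overlap of 49.2%. The upper 50% of each list gave 1529 regions, 29.95% in all 4 lists, 33.0% in 1 list, 0.785% in both Sox9-deficient lists alone, 15.4% in the E11.5 and not the E12.5 control, and overlaps of 63.2% and 59.1%. Equally many top peaks per list gave 25.8%, 39.9%, 1.25% in both controls alone, 34.6%, 12.4% and overlaps of 72.8% and 51.2%. Merging peaks up to 1000 bp apart gave 26.2%, 41.1%, 31.3% in the E12.5 and not the E11.5 control and an E12.5 overlap of 56.6%. Exchanging the Sox9-deficient lists gave overlaps of 69.0% and 61.1%. Distance to any annotated gene gave 629 regions, 18.8%, 51.0%, 37.8% and overlaps of 57.6% and 44.6%. Distance from the midpoint and autosomes alone moved none of the values. Apart from what the fewer peaks or regions of an alternative imply, the cause was not tested. With 1 list left out in turn, the number was 4736 to 5310, the share in 1 list 47.9% to 52.2%, in both Sox9-deficient lists alone 3.11% to 7.96%, in both controls alone 4.95% to 5.31%, in the E12.5 and not the E11.5 control 36.4% to 37.1%, the reverse 17.5% to 18.8%, and the overlaps 59.8% to 60.3% at E11.5 and 52.2% to 52.9% at E12.5. Since only 1 list then stands for 1 side, the shares of both controls alone or both Sox9-deficient lists alone rise by construction. Counting these alternatives and the lists left out, 44 values moved and 50 did not. Joining regions up to 10000 bp apart into runs, a shorter joining distance and an alternative chosen after seeing the data, gave 3329 runs in place of 3095, 134 with at least 5 regions in place of 167 and 22 with at least 10 in place of 26. The share of regions standing alone was then 40.5% in place of 36.04%, and the fullest runs of Rps24-Zmiz1, Gas1-Dapk1 and Plpp3-Usp24 held 22, 23 and 9 regions in place of 50, 38 and 19. No paired analysis was possible because each group had 1 library and the result comes from no test. Depth in reads is unknown, so a region without a peak in a list may hold signal under that list's calling limit.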
